A study of Mus musculus with 8 samples.

Results

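Fatty acid oxidation in the kidney was followed through 37 genes: the carriers and enzymes that bring fatty acids into mitochondria and peroxisomes and shorten them there, an enzyme of ketone body metabolism, and 3 regulators. They were found by gene symbol on the array, and the list was drawn up with earlier results of these data known. On the array 52 probes carry these names and 11 of the genes have more than 1 probe. Each gene is represented by its brightest probe. All 37 were well above background on all 8 arrays, so that none dropped out, and they stand among 25127 genes and unnamed transcripts tested.

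The RNA came from whole kidneys of CD-1 mice, an outbred stock with no engineered allele named in the labels. The sources used here state neither age nor sex. Mice of 1 group received tacrolimus, a calcineurin inhibitor used against transplant rejection, at a daily dose of 1 mg/kg over 28 days; control mice received physiological serum. Each group has 4 arrays with a replicate number but no animal named, and p-values therefore reflect only the spread among these arrays, part of which may be technical. The comparison addresses which transcripts differ in a kidney exposed to a drug known for renal toxicity. All 8 arrays lay on 1 slide, with the groups in different rows, so that slide row and treatment cannot be told apart. Between 64.0% and 69.8% of an array's spots were well above background, and the 75th percentile of the processed intensity lay between 674 and 1061 units. The number of arrays limits the precision. Each level is the log2 of a probe's signal over its array's 75th percentile. Differences are tacrolimus minus control in log2 units, given with the standard error (SE) of limma, a linear model fitted to all genes, and its p adjusted over all of them by the Benjamini-Hochberg method. A gene is said to rise or fall where that adjusted p was under 0.05. In whole-tissue RNA, fewer cells of a type and less RNA per cell cannot be told apart.

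The proximal tubule of the kidney draws most of its energy from fatty acids. Long-chain acids are activated to acyl-CoA, pass into mitochondria as carnitine esters, and are shortened there in a spiral of dehydrogenation, hydration, oxidation and thiolysis. Very long and branched chains are first shortened in peroxisomes. The nuclear receptor PPAR-alpha, encoded by Ppara, binds fatty acids and switches on many of these genes together with RXR, and the coactivator PGC-1alpha, encoded by Ppargc1a, strengthens that response.

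No member passed the test. Of the 37, 0 had an adjusted p under 0.05 (limma), where 0.227% of all genes tested did (0.0398% lower and 0.187% higher under tacrolimus), and the lowest adjusted p was 0.142. At an unadjusted p under 0.05, 8 members were lower under tacrolimus, which is 21.6% of them against 8.42% of all genes tested. In the same way 1 member, Ppara, was higher, against 7.04% of all genes. The mean was lower under tacrolimus for 33 of the 37, or 89.2%, where 60.5% of all genes tested had a difference below 0. Median differences were -0.15 for the members and -0.054 for all genes tested. Because the list was chosen with earlier results of these data known, these shares describe it and are no independent test. The count of 33 depends on the scaling: it was 25 with quantile normalization, 27 with normexp and quantile normalization, 26 in the authors' deposited table, 36 with the array median and 35 with normexp and the 75th percentile. Without tacrolimus replicate 2 it was 28. Under those scalings, in the order given, the median difference of all genes tested was -0.039, -0.028, -0.033, -0.11 and -0.033. That of the members was -0.094, -0.099, -0.097, -0.20 and -0.15. The share of 60.5% belongs to the fit reported and was not computed for the alternatives. Sizes were small. The 95% confidence interval lay between -1 and 1 for 36 members and between -0.5 and 0.5 for 17, so that a change by a factor of 2 lay outside the interval for all but Acot1.

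**Figure D1:**
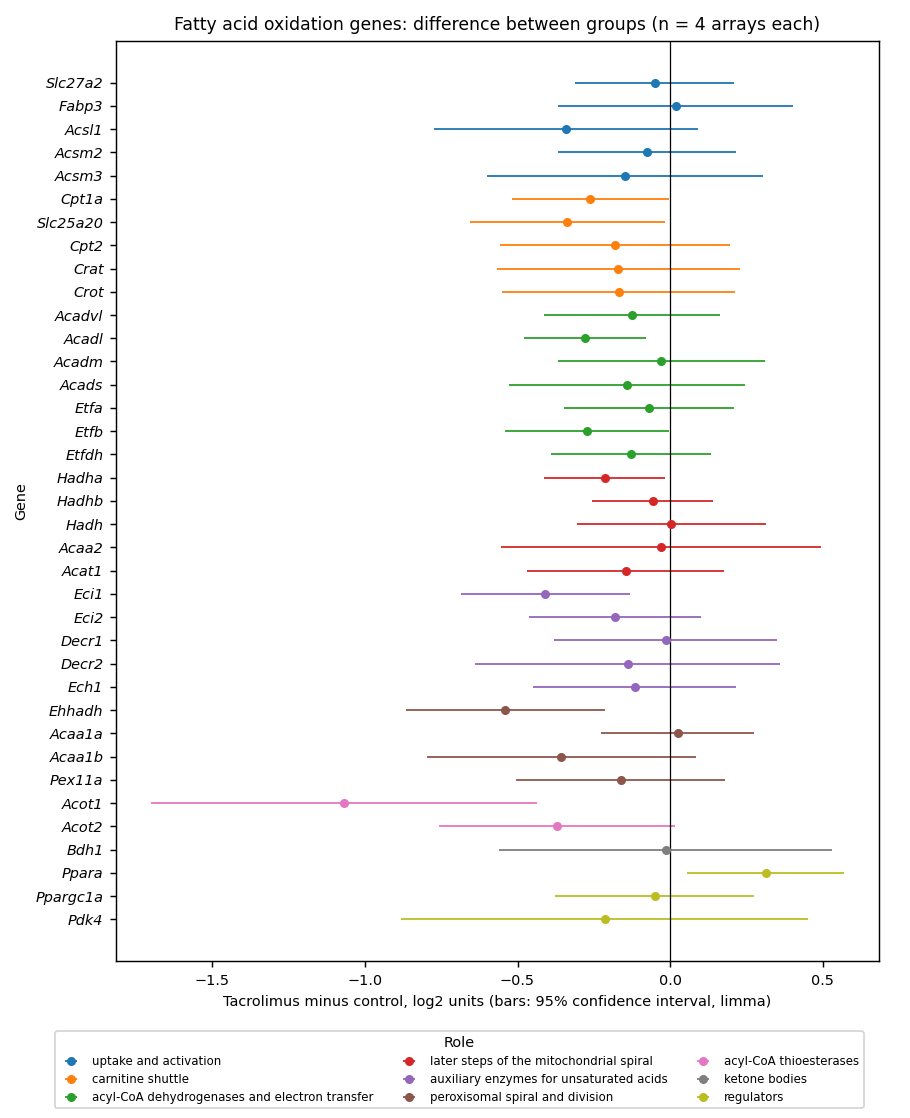
Difference between the groups for each of the 37 genes (tacrolimus minus control, log2 units, horizontal axis), with 95% confidence intervals from limma and colours for the role of the gene. Points left of 0 are lower under tacrolimus; 33 genes lie there, Acot1 at -1.07 furthest left, and Ppara at 0.31 lies furthest right.

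**Figure D2:**
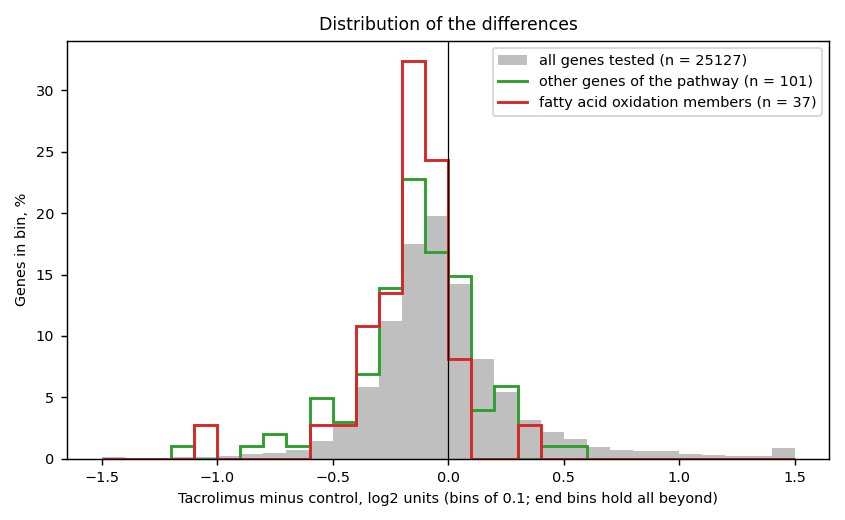
Share of genes (%) in bins of 0.1 log2 units of the difference between groups, for all 25127 genes tested (grey), 101 other genes of the pathway (green) and the 37 members (red). The members sit a little to the left of all genes, with medians of -0.15 and -0.054.

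Tacrolimus replicates 1 and 2 were the low arrays for the members. The median over the members of the level minus its control mean was -0.25, -0.39, -0.030 and 0.0018 on tacrolimus replicates 1 to 4, against -0.048, 0.019, 0.11 and -0.067 on control replicates 1 to 4. Tacrolimus replicates 1 and 2 thus lay below every control array, while replicates 3 and 4 lay within the control range. The same arrays were the lower ones over all genes tested, with medians of -0.082, -0.083, -0.012 and -0.027 on tacrolimus replicates 1 to 4, and over the 101 other pathway genes, with medians of -0.12, -0.21, -0.085 and -0.043. Within the 101, ketone body, mitochondrial and peroxisomal genes were also lowest on these arrays in the median, and the other lists were not. On tacrolimus replicates 1 to 4 the medians of other PPAR-alpha targets were -0.10, -0.41, -0.14 and -0.37. Those of uptake, binding and activation genes were -0.12, -0.20, -0.26 and 0.11, and those of regulators -0.052, -0.15, -0.075 and -0.0056. Tacrolimus replicate 2 was the lowest of all 8 arrays for 22 members and tacrolimus replicate 1 for 7. Without tacrolimus replicate 2 the median difference of the members was -0.066. The median of -0.054 given for all genes tested comes from all 8 arrays and is not of the same fit. The 8 members lower at an unadjusted p under 0.05 became 4 without tacrolimus replicate 1, 4 without tacrolimus replicate 2, 4 without control replicate 3, and 5 without control replicate 2 or without control replicate 4. Spread within the group was larger under tacrolimus for 27 members, with a median SD of 0.24 against 0.15 in the control group (n = 4 each).

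**Figure D3:**
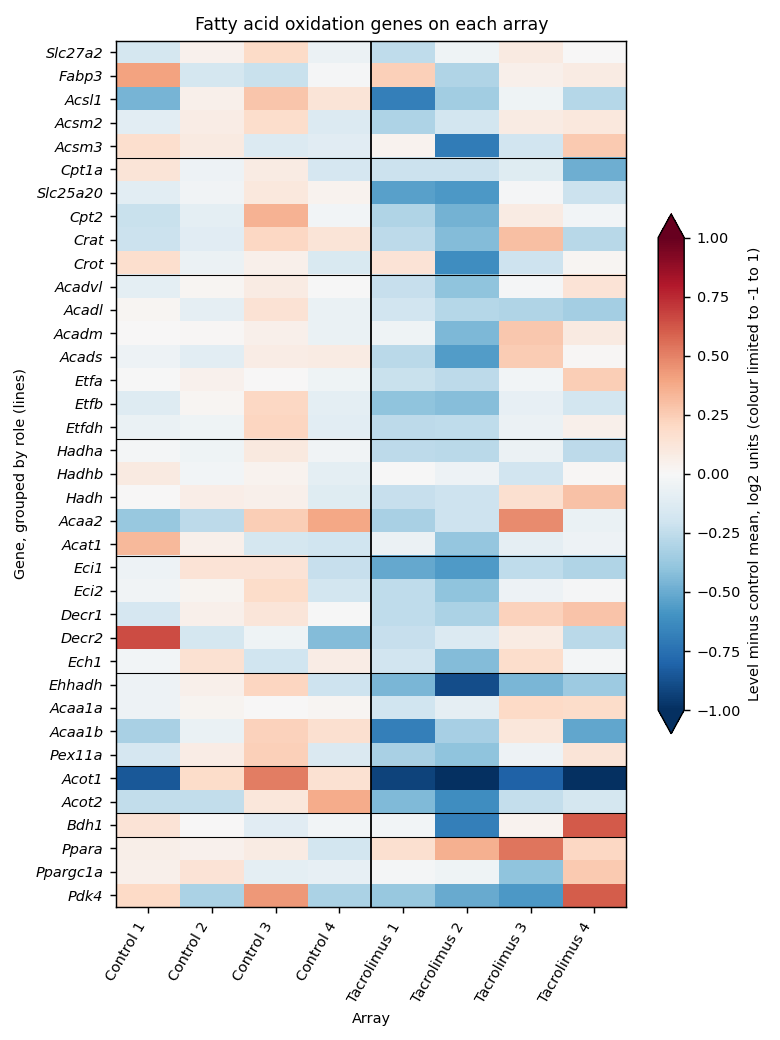
Level of each member on each array minus the mean of the 4 control arrays (colour, log2 units, limited to -1 to 1), with genes grouped by role. Tacrolimus replicates 1 and 2 are blue for most genes, replicates 3 and 4 are mixed, and the row of Acot1 is blue on all 4 tacrolimus arrays and on control replicate 1.

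Markers of the cells that hold this pathway were read on the same arrays. All 18 proximal tubule markers were tested and 0 passed (limma). At an unadjusted p under 0.05, 3 were lower, or 16.7% beside 8.42% of all genes tested. The median difference of the 18 was -0.079. The median marker lay at -0.29, -0.025, 0.18 and -0.062 relative to the control mean on tacrolimus replicates 1 to 4. In this median, tacrolimus replicate 2, the lowest array for the members, was close to the control mean, while tacrolimus replicate 1 was low in both. Single markers differed on tacrolimus replicate 2. It lay below every control for Aqp1, Slc7a13, Slc22a6, Slc22a12, Keg1 and Fbp1, and above every control for Slc5a12 and Slc22a8. The summed signal of the proximal tubule markers ran from 2718 to 3166 in controls and from 2411 to 3245 under tacrolimus, in multiples of the array's 75th percentile. Of 8 macrophage markers tested 7 were higher at an unadjusted p under 0.05, or 87.5% beside 7.04% of all genes tested, and 0 passed (limma). Their summed signal ran from 32.4 to 41.1 in controls and from 43.6 to 58.5 under tacrolimus. Cd163 did not reach the background filter. The 6 adipocyte markers tested had a summed signal from 0.301 to 1.63 in controls and from 1.45 to 18.5 under tacrolimus, highest on tacrolimus replicate 4. On the control arrays Plin1 was well above background on 0, Adipoq on 1, Cidec on 2 and Retn on 3 of 4, while all 6 were above it on all 4 tacrolimus arrays, so that some passed the filter only through the tacrolimus group and no count of them is given. Lep did not reach the filter. The brown fat marker Cidea stood at 2.46 on tacrolimus replicate 4 and between -5.85 and -4.41 on the other arrays, and Ucp1, Elovl3 and Dio2 did not reach the filter. Urothelium markers, of which 4 of 5 were tested, had a summed signal from 0.465 to 0.558 in controls and from 0.413 to 4.96 under tacrolimus. Of 6 muscle markers only Acta1 reached the filter. None of 6 endothelial, 4 hepatocyte and 4 urothelium markers was under an unadjusted p of 0.05, nor was any of the 3 brown fat markers tested (limma). Among 9 markers of the thick ascending limb and distal nephron 1, Calb1, was higher at an unadjusted p under 0.05 (limma). That is 11.1%, beside 7.04% of all genes tested. The part of these cell types in the members' differences was not tested.

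**Figure D4:**
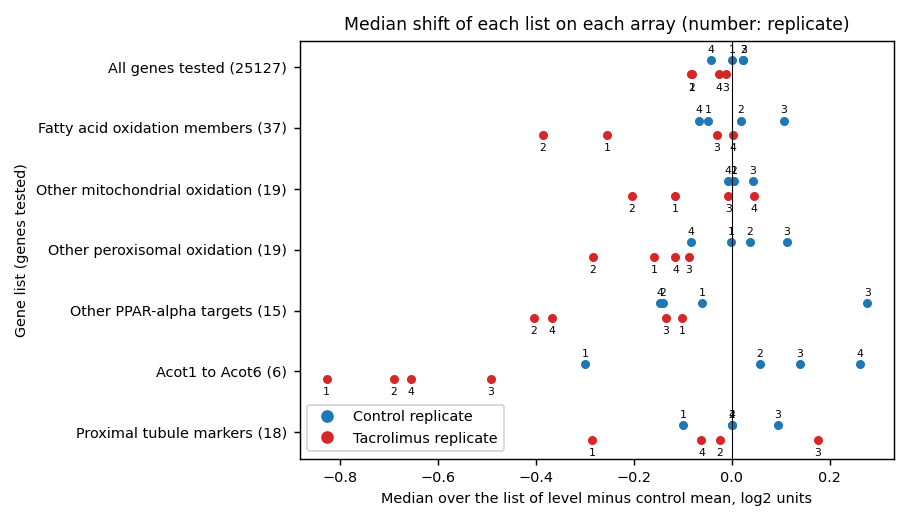
Median over each gene list of the level minus the control mean (log2 units, horizontal axis) on each array, with control replicates in blue, tacrolimus replicates in red and the replicate number beside the point. For the members, tacrolimus replicates 1 and 2 lie at -0.25 and -0.39. For the proximal tubule markers they lie at -0.29 and -0.025. The list Acot1 to Acot6 was chosen after its values were seen, so its separation is no support.

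PPAR-alpha and the estrogen-related receptors bind DNA through the hexamer AGGTCA, PPAR-alpha with RXR at a pair of hexamers 1 base apart. Promoters from RefSeq (GRCm38.p6) matched 33 of the 37 members by symbol; Acaa2, Acat1, Crat and Decr1 are named only. The 250 bases upstream of the gene start were searched on both strands for AGGTCA, for the pair AGGTCANAGGTCA, for the looser pair NGGNCANAGGNCA, and for the form TCAAGGTCA; the longer motifs can overlap the hexamer. AGGTCA stood in 4 of the 33 members, or 12.1%, and in 15.8% of all 27025 genes of the table. Among the 79 other pathway genes with a promoter it stood in 19, or 24.1%. The pair, its looser form and TCAAGGTCA were in 0 members, and in 0.0407%, 0.81% and 0.422% of all genes. Stretches around the hexamer are shown for the 4 members that hold it, with the motif in capitals, to set the known binding word beside genes whose differences are given further on. They read 5′ to 3′ on the strand of the gene, so that TGACCT is the hexamer on the other strand. The looser pair was also in 4 of the 79 other pathway genes with a promoter, or 5.06%: Acot4, Acox2, Fabp1 and Rxra. Of these, Acox2, Fabp1 and Rxra differed between the groups by -0.23, -0.035 and -0.13, with adjusted p between 0.582 and 0.979 (limma). The stretch of Acot4, a thioesterase gene, is added because its row of genes is described further on; it was chosen after its values were seen.
Acadm: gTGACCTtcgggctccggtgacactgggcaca
Acadvl: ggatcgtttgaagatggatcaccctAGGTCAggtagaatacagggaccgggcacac
Cpt1a: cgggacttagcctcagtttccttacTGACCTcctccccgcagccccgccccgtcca
Slc27a2: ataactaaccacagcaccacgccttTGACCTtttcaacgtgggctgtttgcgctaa
Acot4: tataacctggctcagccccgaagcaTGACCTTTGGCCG
These stretches lie at chr3:153944862-153944893 (minus strand) for Acadm, chr11:70015485-70015540 (minus strand) for Acadvl, chr19:3323182-3323237 (plus strand) for Cpt1a, chr2:126552779-126552834 (plus strand) for Slc27a2 and chr12:84038341-84038378 (plus strand) for Acot4. The motif spans bases 249 to 244 upstream of the start for Acadm, 87 to 82 for Acadvl, 94 to 89 for Cpt1a, 220 to 215 for Slc27a2 and 13 to 1 for Acot4. For Acot4 the capitals mark the looser pair, within which the hexamer spans bases 13 to 8, and in the other stretches they mark the hexamer. A match describes the letters of this window and is not a measured binding site.

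The regulators held the only member higher at an unadjusted p under 0.05. Ppara stood at 4.22, 4.21, 4.24 and 3.98 on control replicates 1 to 4 and at 4.32, 4.51, 4.69 and 4.36 on tacrolimus replicates 1 to 4. Every tacrolimus array lay above every control array, by little in the case of tacrolimus replicate 1. The difference was 0.31 ± 0.11 (SE), 1.24-fold, with an adjusted p of 0.252 (limma), between 0.120 and 0.410 over the alternatives, and it did not pass. Without control replicate 4, tacrolimus replicate 2 or tacrolimus replicate 3 its unadjusted p was above 0.05. Groups that do not overlap in this direction were found for 4.35% of all genes. A further probe of Ppara differed by 0.30 and another by 0.015, so that its 3 probes disagree. The probe used lies at chr15:85632110-85632169 on mm9. Ppargc1a overlapped between the groups: it stood at 3.22, 3.31, 3.07 and 3.09 in the control group and 3.15, 3.13, 2.77 and 3.43 under tacrolimus, with a difference of -0.051 ± 0.14 and a 95% interval of -0.38 to 0.28. Pdk4, a kinase that shuts off pyruvate dehydrogenase when fat is burned and a PPAR target, read 0.07, -0.45, 0.31 and -0.45 on the control arrays and -0.51, -0.63, -0.71 and 0.47 on the tacrolimus arrays. Tacrolimus replicates 1 to 3 were the 3 lowest arrays for Pdk4 and replicate 4 the highest of all 8, and the difference of -0.21 ± 0.29 did not pass (adjusted p = 0.752, limma).

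At the entry to the pathway, 0 of the 5 activating enzymes and carriers were under an unadjusted p of 0.05 (limma). Acsm2 and Acsm3 encode medium-chain acyl-CoA synthetases. Acsm2 stood at 7.90, 8.08, 8.18 and 7.87 in controls and 7.70, 7.83, 8.09 and 8.11 under tacrolimus, and Acsm3 at 7.46, 7.38, 7.16 and 7.18 and 7.33, 6.59, 7.11 and 7.56. The groups overlapped for both, tacrolimus replicate 2 being the low array of Acsm3, and the differences were -0.075 ± 0.13 and -0.15 ± 0.20. Fabp3, a binding protein that carries fatty acids in the cytosol, read 5.52, 4.94, 4.89 and 5.10 in the control group and 5.35, 4.81, 5.17 and 5.19 under tacrolimus, a difference of 0.018 ± 0.17 with an interval of -0.37 to 0.40. Slc27a2, a very-long-chain acyl-CoA synthetase and transporter, differed by -0.051 ± 0.11. Acsl1, the long-chain acyl-CoA synthetase, differed by -0.34 ± 0.19 (adjusted p = 0.407, limma) with a further probe at -0.44; control replicate 1, at 4.39, lay below 3 of the 4 tacrolimus arrays.

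All 5 genes of the carnitine shuttle had lower means under tacrolimus, as did 60.5% of all genes tested. At an unadjusted p under 0.05, 2 were lower, or 40% beside 8.42% of all genes, and 0 passed (limma). Cpt1a, the outer-membrane enzyme that sets the rate of entry, stood at 5.23, 5.06, 5.19 and 4.94 on the control arrays and 4.89, 4.89, 4.98 and 4.61 on the tacrolimus arrays. The highest tacrolimus array lay just above the lowest control array. The difference was -0.26 ± 0.11 (SE), 1.20-fold lower, with an adjusted p of 0.317 (limma), and a further probe differed by -0.12. Slc25a20, the carrier that exchanges acylcarnitine for carnitine across the inner membrane, differed by -0.34 ± 0.14 (adjusted p = 0.302, limma). It was low on tacrolimus replicates 1 and 2 (-0.04 and -0.07) and nearer to the controls on replicates 3 and 4 (0.49 and 0.29), of which replicate 3 lay within their range. Cpt2, which restores acyl-CoA inside the mitochondrion, and Crat and Crot, the carnitine transferases for short and medium chains, differed by -0.18, -0.17 and -0.17, with adjusted p between 0.611 and 0.654 (limma).

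The first oxidation step is made by acyl-CoA dehydrogenases of different chain length, which pass electrons through the flavoprotein ETF to the respiratory chain. Acadl, for long chains, was the member of this group with the lowest p. It stood at 3.42, 3.31, 3.55 and 3.34 on the control arrays and 3.22, 3.12, 3.1 and 3.07 on the tacrolimus arrays, and the groups did not overlap. The difference was -0.28 ± 0.087, 1.21-fold lower (adjusted p = 0.207, limma), at chr1:66877673-66877732 on mm9. Non-overlapping groups in this direction made up 5.75% of all genes, and 4 of the 37 members. Acadm, the medium-chain enzyme whose promoter carries the hexamer shown above, did overlap between the groups: 7.49, 7.50, 7.53 and 7.42 in controls and 7.45, 7.04, 7.76 and 7.58 under tacrolimus. Its control arrays agreed within 0.12 log2 units, while the tacrolimus arrays lay on both sides of them, and the interval of the difference was -0.37 to 0.31. Acadvl and Acads, for very long and short chains, differed by -0.13 and -0.14. Etfb, a subunit of ETF, differed by -0.27 ± 0.12 (adjusted p = 0.319, limma), and its further probes by -0.25 and -0.13. The other subunit Etfa and the membrane dehydrogenase Etfdh differed by -0.069 and -0.13.

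Among the 5 members of the later steps of the spiral, Hadha alone had groups that did not overlap. Hadha, the alpha subunit of the trifunctional protein, stood at 1.15, 1.12, 1.26 and 1.13 in the control group and 0.90, 0.89, 1.11 and 0.90 under tacrolimus. The groups did not overlap, tacrolimus replicate 3 lying 0.016 below the lowest control, and the difference was -0.21 ± 0.087 (adjusted p = 0.295, limma). The probe lies at chr5:30446215-30446274 on mm9. Its partner Hadhb differed by -0.057 ± 0.087, with an interval of -0.26 to 0.14. Hadh, Acaa2 and Acat1, which oxidise the hydroxyacyl-CoA and split off acetyl-CoA, differed by 0.0041, -0.031 and -0.15, with adjusted p of 0.634 or more (limma). Among the auxiliary enzymes for unsaturated acids, Eci1, which shifts a double bond, had the lowest p. It read 5.25, 5.44, 5.44 and 5.07 on the control arrays and 4.79, 4.73, 5.05 and 5.0 on the tacrolimus arrays, with a narrow gap between tacrolimus replicate 3 and control replicate 4. The difference was -0.41 ± 0.12 (SE), 1.33-fold lower, and its adjusted p was 0.183 (limma; 0.0887 to 0.398 over the alternatives). Eci2, Decr1, Decr2 and Ech1 differed by -0.18, -0.015, -0.14 and -0.12. A further, dimmer probe of Decr1 differed by -0.31 (unadjusted p = 0.0298, limma).

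Ehhadh, the bifunctional enzyme of the peroxisomal spiral and a classical PPAR-alpha target, was lower on each tacrolimus array. It stood at 5.84, 5.94, 6.11 and 5.68 on control replicates 1 to 4 and 5.44, 5.01, 5.44 and 5.53 on tacrolimus replicates 1 to 4. Tacrolimus replicate 2 was the lowest, and the highest tacrolimus array lay below the lowest control. The difference was -0.54 ± 0.14 (SE), 1.45-fold lower, with an interval of -0.87 to -0.21 and an adjusted p of 0.147 (limma), which did not pass and ran from 0.0837 to 0.331 over the alternatives. Its only probe lies at chr16:21761914-21761973 on mm9. The peroxisomal thiolases Acaa1a and Acaa1b, close copies of each other, differed by 0.024 ± 0.11 and -0.36 ± 0.19; whether a probe also detects the other copy was not examined. Pex11a, which divides peroxisomes, differed by -0.16.

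The acyl-CoA thioesterases held the largest difference among the members. These enzymes release free fatty acid from acyl-CoA. Acot1, the cytosolic form, stood at 3.85, 4.88, 5.21 and 4.85 on control replicates 1 to 4 and 3.77, 3.40, 3.89 and 3.45 on tacrolimus replicates 1 to 4. Control replicate 1 lay among the tacrolimus arrays, about 1 log2 unit below the other controls, so that the groups overlapped. The difference was -1.07 ± 0.28 (SE), 2.10-fold lower, with an adjusted p of 0.142 (limma), and without control replicate 1 it was -1.35 with an adjusted p of 0.0363, the only member called under any alternative. Acot2, its mitochondrial relative, read -1.11, -1.12, -0.76 and -0.50 in controls and -1.31, -1.49, -1.11 and -1.05 under tacrolimus, a difference of -0.37 ± 0.17 (adjusted p = 0.335, limma).

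Both belong to a row of similar genes on chromosome 12, whose probes lie between 85334071 and 85452010 on mm9 in the order Acot2, Acot1, Acot4, Acot3, Acot5 and Acot6. This row was singled out after the values were seen. Means were lower under tacrolimus for all 6, with differences of -0.37, -1.07, -0.58, -0.80, -1.12 and -0.17 in that order. At an unadjusted p under 0.05, 4 were lower, and 0 passed (limma). The 8.42% of all genes tested that were lower at that level is no fair measure for a row picked by its values. Acot4, which is peroxisomal, stood at 2.63, 2.91, 2.96 and 2.89 in controls and 2.12, 2.18, 2.41 and 2.37 under tacrolimus, with no overlap, a difference of -0.58 ± 0.11 and an adjusted p of 0.0704 (limma). It was called under 4 of the alternatives, within a range of 0.0300 to 0.184. Acot5 read -0.55, 0.41, 0.71 and 0.71 on the control arrays and -0.69, -1.07, -0.44 and -1.02 on the tacrolimus arrays. As with Acot1, control replicate 1 lay among the tacrolimus arrays, and without it the difference of Acot5 went from -1.12 to -1.41 with an adjusted p of 0.0386 (limma), within a range of 0.0386 to 0.398 over the alternatives. Further probes did not always agree: that of Acot3 differed by -0.73, that of Acot5 by -0.22 and that of Acot6 by 0.011. The 6 genes are similar in sequence, and signals shared between their probes were not examined.

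**Figure D5:**
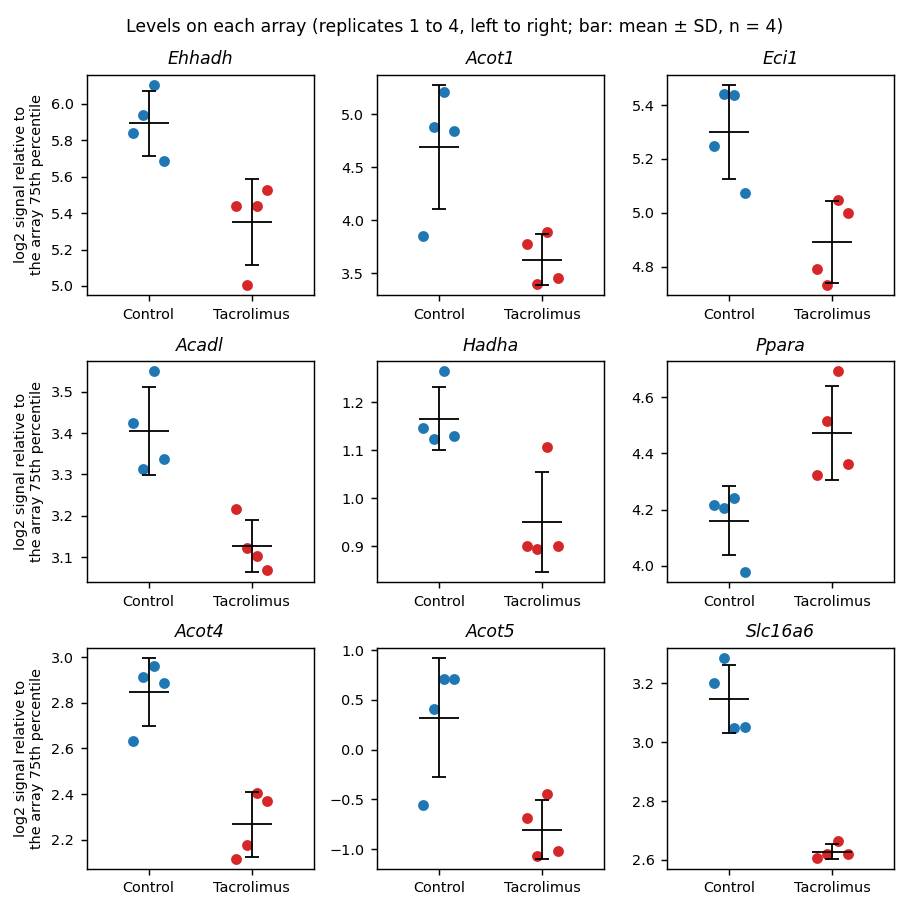
Levels (log2 signal relative to the array's 75th percentile, vertical axis, a separate scale for each gene) on the 4 control arrays (blue) and 4 tacrolimus arrays (red), replicates 1 to 4 from left to right, with mean ± SD. Ehhadh, Eci1, Acadl, Hadha, Acot4 and Slc16a6 do not overlap between groups and are lower under tacrolimus, Ppara does not overlap and is higher, and Acot1 and Acot5 overlap through control replicate 1. These genes are shown for their separated groups or large differences, so their separation is no support. Of all genes tested, 5.75% did not overlap and were lower, and 4.35% did not overlap and were higher.

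Ketone bodies are made from acetyl-CoA in mitochondria, and Bdh1 interconverts acetoacetate and beta-hydroxybutyrate, their main forms. Bdh1, the only member of this branch apart from the thiolase Acat1, stood at 5.56, 5.43, 5.31 and 5.40 in controls and 5.40, 4.74, 5.46 and 6.04 under tacrolimus. Its controls lay close together and the tacrolimus arrays ran from the lowest to the highest of all 8, with a difference of -0.015 ± 0.24 and an interval of -0.56 to 0.53.

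Transporters of the monocarboxylate family include carriers of ketone bodies. Slc16a6 stood at 3.20, 3.28, 3.05 and 3.05 on the control arrays and 2.61, 2.62, 2.66 and 2.62 on the tacrolimus arrays, the latter within 0.056 log2 units of each other. The difference was -0.52 ± 0.086, 1.43-fold lower, with an adjusted p of 0.0552 (limma), just above the threshold of 0.05; 6 alternatives called it and the adjusted p ran from 0.0264 to 0.273. A further probe differed by -1.31 (unadjusted p = 0.0886, limma). Slc16a1, which carries lactate and ketone bodies, differed by -0.34 and Slc16a7, its high-affinity relative, by 0.42 (adjusted p = 0.286 and 0.320, limma). The other 5 probes of Slc16a7 differed by -0.22 to 0.30, so that its probes disagree in direction.

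Among other genes of mitochondrial oxidation, 0 of 19 passed (limma) and 2 were lower at an unadjusted p under 0.05. That is 10.5%, near the 8.42% of all genes tested. Slc22a5, the carnitine transporter of the cell membrane, differed by -0.47 ± 0.14 (SE), with 3 of 4 tacrolimus arrays below the lowest control. Hsd17b10, a hydroxyacyl-CoA dehydrogenase, differed by -0.21, Acad9, which helps assemble complex I, by -0.33, and Acss1, the mitochondrial acetyl-CoA synthetase, by 0.22; their adjusted p ran from 0.187 to 0.370 with that of Slc22a5 (limma). Cpt1b, the muscle form of the shuttle enzyme, differed by -0.15 with an interval of -0.78 to 0.48. Of 19 other peroxisomal genes 4 were lower at an unadjusted p under 0.05, or 21.1% beside 8.42% of all genes tested, and 0 passed (limma). The 4 genes were Acot4, Cat, the catalase that removes peroxisomal hydrogen peroxide, at -0.29 ± 0.083, Abcd3, a fatty acid transporter of the peroxisomal membrane, at -0.28 ± 0.10, and Hao2, a hydroxyacid oxidase, at -0.56 ± 0.20. The groups of Cat did not overlap, at 3.96, 3.93, 3.96 and 3.86 in controls and 3.72, 3.63, 3.70 and 3.51 under tacrolimus, although a further probe differed by only -0.083.

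Of 15 other PPAR-alpha targets tested, 3 were lower at an unadjusted p under 0.05, 0 were higher, and 0 passed (limma). The 3 are 20%, beside 8.42% of all genes tested. Cyp4a10, an omega-hydroxylase of fatty acids, stood at 5.42, 5.15, 5.93 and 5.44 on the control arrays and 4.93, 4.65, 5.14 and 4.20 on the tacrolimus arrays. The groups did not overlap, tacrolimus replicate 4 being the lowest, and the difference was -0.76 ± 0.23, 1.69-fold lower (adjusted p = 0.198, limma). Cyp4a31, a close relative, differed by -0.63 ± 0.23; signals shared between their probes were not examined, and both values are uncertain in that respect. Mgll, the lipase that splits monoglycerides, read 4.49, 4.73, 5.21 and 4.57 in controls and 4.30, 4.06, 4.18 and 3.47 under tacrolimus, a difference of -0.75 ± 0.22 (adjusted p = 0.181, limma) with no overlap. Further probes of Mgll that were above background differed by -0.59 and -0.57. Over the 15 targets the differences ran from -0.76 to 0.073 with a median of -0.15. Of these, 12 were below 0, or 80%, beside 60.5% of all genes tested, and 3 were above. Ppara, which was higher, and Ehhadh, Acot1, Cyp4a10 and Mgll, which were lower, are named together here because of their low unadjusted p. Their contrast thus rests on that choice, and Pdk4, also a PPAR target, differed by only -0.21 ± 0.29. None of these genes passed (limma), and a link between their directions was not tested.

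A list of 19 other genes of uptake, binding and activation also holds thioesterases, which act against activation. In it 4 genes were lower at an unadjusted p under 0.05, or 21.1% beside 8.42% of all genes tested. They were the thioesterases Acot5, Acot3 and Acot7 and the transporter Slc27a4, and 0 passed (limma). The share of this list thus rests mostly on thioesterases, of which Acot5 and Acot3 lie in the row on chromosome 12. Acot7, which is not in the row on chromosome 12, and Slc27a4 differed by -0.30 and -0.33. Of 23 other regulators 4 were lower, or 17.4%, 0 higher at that level, and 0 passed (limma). Acaca, an acetyl-CoA carboxylase, differed by -0.29 ± 0.10. Prkaa2, a catalytic subunit of AMP-activated kinase, differed by -0.33 ± 0.12, Rxrb, a partner of PPAR-alpha, by -0.24 ± 0.090, and Pdk3, another kinase of pyruvate dehydrogenase, by -0.36 ± 0.15, all with adjusted p between 0.224 and 0.293 (limma). None of the 101 other genes of the pathway passed (limma). Over them the median difference was -0.12, with 19 lower and 1 higher at an unadjusted p under 0.05 (limma). These are 18.8% and 0.990%, beside 8.42% and 7.04% of all genes tested. The lists of other genes, too, were chosen with earlier results of these data known.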

How the data were processed

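Intensities are those that the authors deposited in 1 scanner file per array, read with Agilent Feature Extraction (version 10.7.3.1 in the file headers, 1 colour, Cy3). The processed intensity is background-subtracted and detrended by that software and is not normalized between arrays. The authors' deposited table holds log2 values and equals, to within 5e-09, log2 values computed here by quantile normalization of the raw median intensity, with no background subtracted; the submitters' processing notes name limma. Each processed intensity was divided by the 75th percentile of its array (59305 non-control spots) and put on the log2 scale. The 3671 control spots and spots marked as outliers were left out and spots of a probe averaged, which left 55649 probes with a value on every array. Probes well above background on at least 4 of 8 arrays (36493) were kept, with the brightest for each gene. Symbols came through the accession from RefSeq (GRCm38.p6; 28020 probes matched), otherwise from the files. Tests used limma 3.58.1 under R 4.3.3 (lmFit, eBayes, two-sided, Benjamini-Hochberg over 25127 genes), tested on simulated data. The members and lists were chosen with earlier results of these data known. Named genes are all members, in each other list up to 4 genes with the lowest p, and Cpt1b, with Acot6 added after its values were seen; array values are printed for members whose groups do not overlap and for 12 members listed in the design. Results of 2 genes of the pathway lists are not reported here. Alternatives were quantile or median scaling, the deposited table, normexp background correction (offset 50), other filters, the mean of a gene's probes, a variance trend, array weights, a replicate block, and fits without 1 or 2 arrays. Exons and UTRs at the probes, which the files place on mm9, were not examined.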

Additional observations from a re-analysis of the deposited data

Results flagged for a closer look

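In each group of 4 arrays, the array furthest from the others was set against Dixon's 95% critical value for the gap divided by the range; chance passes it in about 1 of 20 groups, and 7 of 122 groups passed. Acat1 on tacrolimus replicate 2 stood at 5.35, against 5.65 to 5.69 on the other 3 tacrolimus arrays (ratio 0.888). Hadha on control replicate 3 stood at 1.26, against 1.12 to 1.15 on the other 3 control arrays (ratio 0.834). Hadha on tacrolimus replicate 3 stood at 1.11, against 0.89 to 0.90 on the other 3 tacrolimus arrays (ratio 0.965). Pdk4 on tacrolimus replicate 4 stood at 0.47, against -0.71 to -0.51 on the other 3 tacrolimus arrays (ratio 0.831). Ppara on control replicate 4 stood at 3.98, against 4.21 to 4.24 on the other 3 control arrays (ratio 0.861). Slc16a1 on control replicate 1 stood at -2.94, against -3.39 to -3.32 on the other 3 control arrays (ratio 0.847). Slc27a4 on tacrolimus replicate 4 stood at -1.36, against -1.01 to -0.95 on the other 3 tacrolimus arrays (ratio 0.839).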

How the results depend on the processing

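With 4 arrays a group, members whose true difference is small cannot be separated from 0. The number of members called was 0 in the fit reported and under every alternative except without control replicate 1, where it was 1 (0 to 1 over the fits that leave out 1 array). The 57 genes called over the whole array became 285 with normexp and the 75th percentile, 131 with normexp and quantile normalization, 180 in the deposited table, 32 with no filter, 151 with the filter on all 8 arrays, 221 with a variance trend, 309 with array weights, 103 with the replicate number as a block, 8 without control replicate 2 and tacrolimus replicate 4 together, and 7 to 56 without 1 array. The 8 members lower at an unadjusted p under 0.05 ranged from 4 to 10 without 1 array, and were 6 without control replicate 2 and tacrolimus replicate 4 together. The 1 higher member, Ppara, was 0 with the mean of a gene's probes and 0 to 1 without 1 array. The median difference of the members stayed below 0, from -0.20 to -0.066 without 1 array. Same-numbered arrays deviated together with correlations of 0.16, 0.021, 0.14 and 0.055, so that the numbers were not taken to pair the arrays; the block gave 11 members lower at an unadjusted p under 0.05 and called 0. The cause of these shifts was not tested.

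Of 61 named genes, 46 kept their direction under all 20 alternatives. The other 15 had differences of at most 0.15 in size, none was called under any alternative, and their signs turned with the array median (Acaa1a -0.027, Fabp3 -0.034, Hadh -0.048); with array weights (Acaa1a -0.050, Hadh -0.10); in the deposited table (Acaa2 0.040, Acadm 0.092, Bdh1 0.061, Decr1 0.041, Ech1 0.0070, Hadhb 0.0084, Ppargc1a 0.0057); with normexp and quantile normalization (Acaa2 0.041, Acadm 0.085, Bdh1 0.059, Decr1 0.052, Hadhb 0.00057, Slc27a2 0.014); with normexp and the 75th percentile (Acaa1a -0.016, Hadh -0.020); with quantile normalization (Acaa2 0.027, Acadm 0.040, Acsm2 0.013, Bdh1 0.050, Decr1 0.053, Hadhb 0.0080, Ppargc1a 0.0095, Slc27a2 0.0025); without control replicate 2 and tacrolimus replicate 4 together (Acaa1a -0.020, Fabp3 -0.061, Hadh -0.071). Without 1 array the signs of 13 of them turned, with ranges of Acaa1a -0.033 to 0.10, Acaa2 -0.20 to 0.10, Acadm -0.13 to 0.11, Acsm2 -0.14 to 0.0038, Acsm3 -0.28 to 0.036, Bdh1 -0.22 to 0.21, Cpt1b -0.30 to 0.060, Decr1 -0.11 to 0.087, Decr2 -0.29 to 0.077, Fabp3 -0.056 to 0.15, Hadh -0.092 to 0.081, Ppargc1a -0.15 to 0.067, Slc27a2 -0.11 to 0.017.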
